A study of Danio rerio with 8 samples.

Results

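The genes described are 7 transcription factor genes linked to the mesenchymal state, snai1a, snai1b, snai2, twist1a, twist1b, prrx1a and prrx1b, and 3 genes of the activated extracellular matrix, postnb, fn1a and fn1b. They were chosen by name, as every row of the count tables that carries one of these symbols with or without an added number, and rows of the same symbol were summed. This gave 10 genes on 11 rows, out of 37685 genes on 53709 rows, and only fn1a had more than 1 row. All 10 passed the filter on low counts, among 16631 genes tested.

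Bulk RNA was sequenced from zebrafish epicardial cells, the cell layer that covers the heart, sorted from ventricles by a nuclear fluorescent reporter driven by tcf21. All 8 libraries carried the reporter and came from fish 70 days after fertilization, 4 from cxcr4aum20 mutants, which the labels call coronary loss, and 4 from wild type labelled as controls. The mutation and the loss of coronary vessels always occur together here, so effects of the vessel loss and other effects of the mutation cannot be told apart. Whether a library is 1 fish or a pool is not in the labels, and part of the spread behind each p-value may therefore be technical.

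Epicardial cells can leave their epithelial sheet and become mesenchymal cells that give rise to fibroblasts and mural cells. Snail proteins (snai genes) are zinc finger repressors that silence epithelial genes such as E-cadherin, Twist proteins are basic helix-loop-helix factors that pair with E proteins, and Prrx1 proteins are homeobox factors of embryonic and injury mesenchyme. Fibronectin (fn1 genes) is the main glycoprotein of provisional matrix and is bound by integrins, and in zebrafish the epicardium deposits it after heart injury. Periostin (postn genes) is a matricellular protein that binds integrins and collagen and is widely used to mark activated fibroblasts. Work on injured zebrafish hearts has linked prrx1b to the response of epicardium-derived cells.

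Libraries held 18891079 to 28471786 counts, with 15512 to 17520 genes at 10 counts or more. Levels are given as CPM, counts scaled to a common library size by the TMM method, and each is a level of 1 gene that is not corrected for its length, so levels are compared between libraries and not between genes. The epicardial markers tcf21 (73.0 to 142 CPM), tbx18 (538 to 1117 CPM), wt1a and wt1b were present in every library, while aldh1a2 had 33 counts in all 8. tbx5a was low, at 1.00 to 6.03 CPM in mutants and 0.0 to 1.09 CPM in wild type (log2 fold change 2.93, edgeR adjusted p = 0.555). Summed over these 6 epicardial markers, with tbx18 the largest part, mutants were at 993 to 1134 CPM and wild type at 817 to 1428 CPM (exact permutation p = 0.629, 2-sided). cxcr4a itself had 86 to 447 counts in mutants and 12 to 219 in wild type, which does not check the genotype labels, since a mutant transcript can still be counted. No pair of libraries of a group agreed within sampling noise.

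The clearest genotype gap was in fibronectin. For both fn1 genes, 4 of 4 mutants exceeded all wild types, on average 2.64-fold for fn1a and 1.57-fold for fn1b. For snai2, 3 of 4 mutants exceeded all wild types, for prrx1a 3 of 4 lay below all of them, and the other 6 genes overlapped widely. edgeR's quasi-likelihood test, with Benjamini-Hochberg adjustment over all genes and a threshold of 0.05, called 0 of the 10, where the background was 0.0481% of genes (8 of 16631, 0.012% higher and 0.0361% lower). Without adjustment, edgeR gave 3 of the 10 a p under 0.05, all higher in mutants (background 8.64% in either direction and 5.09% higher). These were snai2, fn1a and fn1b, each at its highest in mutant 1, so they cannot be counted as independent results. The 10 genes were chosen with earlier results of these data known, and the shares in this paragraph are therefore descriptions. At an adjusted p under 0.05, limma voom called 0 of the 10, and 0 of all 16631 genes tested. DESeq2 called 1 at that threshold, fn1a, against a background of 1.79% (1.02% higher, and 2.47% of the genes given an adjusted p). Groups did not overlap for 2 of the 10 genes, both higher in mutants, against 6.3% of all genes tested (3.48% higher and 2.82% lower). In bulk libraries, fewer cells of a type and less RNA per cell cannot be told apart, here and in each difference that follows.

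**Figure D1:**
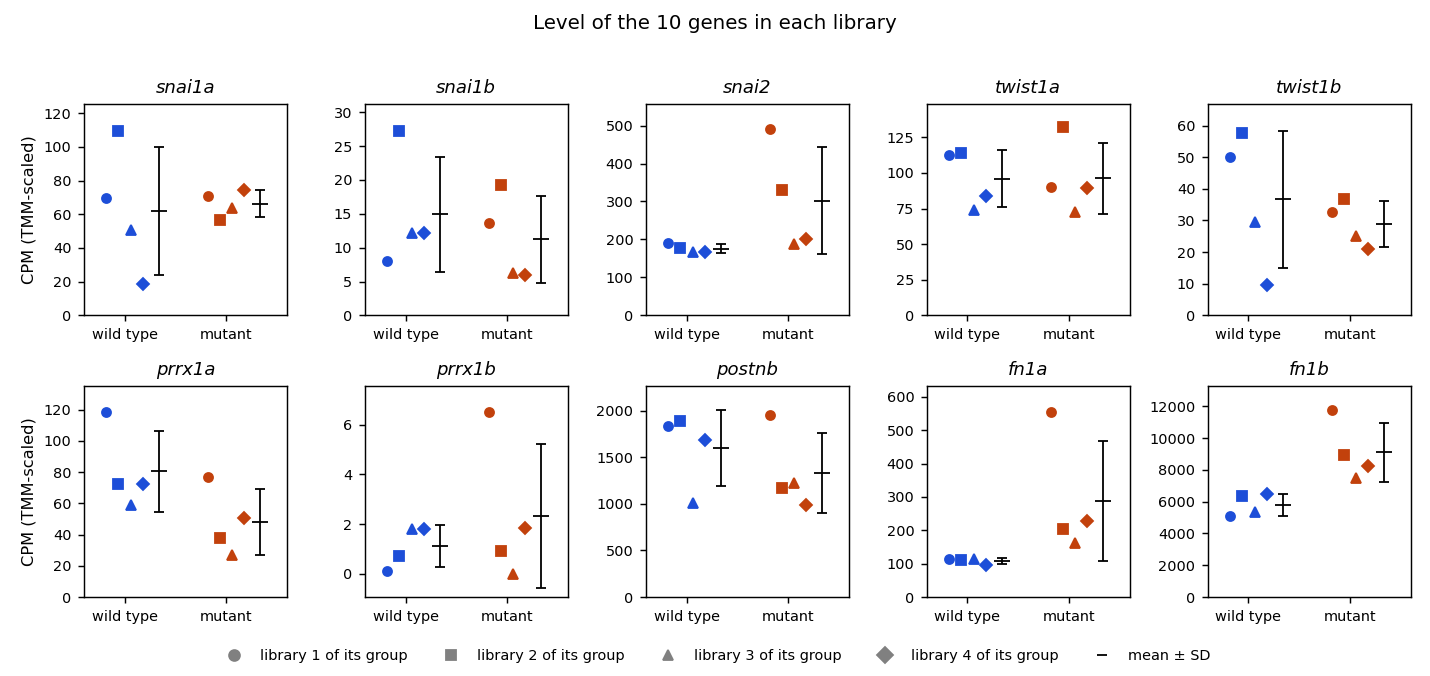
Level of each of the 10 genes in every library, in CPM after TMM scaling on linear axes, with wild type in blue and cxcr4a mutants in orange; marker shapes number the libraries within a group, and the bar is the mean ± SD of 4 libraries. The mutant points of fn1a (162 to 553 CPM) and fn1b (7462 to 11752 CPM) lie above all wild-type points, and the other genes overlap between genotypes.

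snai1a was at 70.8, 56.5, 63.6 and 74.1 CPM in mutants 1 to 4 and at 69.4, 109, 50.9 and 18.5 CPM in wild types 1 to 4. The mutants lay close together inside the wild-type range, whose highest library was 5.91 times its lowest. The log2 fold change, mutant against wild type, was 0.09 ± 0.43 (SE, n = 4 per group), with a 95% interval of -0.87 to 1.06 and an edgeR adjusted p of 0.978. Without wild type 4, the low library, it was -0.21, so no direction can be given for this gene.

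Its paralog snai1b was at 13.6, 19.3, 6.24 and 5.93 CPM in mutants and 8.06, 27.3, 12.2 and 12.1 CPM in wild type. Mutants 3 and 4 lay below every wild-type library and mutants 1 and 2 above 3 of them. Its log2 fold change was -0.41 ± 0.50 (95% interval -1.54 to 0.72, edgeR adjusted p = 0.877) and 0.05 without wild type 2.

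snai2, the gene also known as slug, was at 490, 330, 188 and 200 CPM in mutants and at 192, 178, 168 and 167 CPM in wild type. The wild types were nearly level, at 176 ± 11.6 CPM (SD, n = 4), and the mutants were not, at 302 ± 141 CPM, with mutants 1 and 2 far above wild type and mutant 3 within it. Between genotypes the log2 fold change was 0.78 ± 0.31 (95% interval 0.08 to 1.48; edgeR unadjusted p = 0.0320, adjusted p = 0.522, and 0.292 with DESeq2 to 0.907 over the alternatives). Without mutant 1 it was 0.43, and the mean of the other 3 mutants, 239.5 ± 78.7 CPM, was 1.36 times that of wild type. The unadjusted p stayed under 0.05 in 2 of the 8 fits that left out 1 library.

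twist1a showed the smallest difference of the 10 genes. It was at 90.2, 132, 72.8 and 89.6 CPM in mutants and 112, 114, 74.2 and 83.6 CPM in wild type, and the groups spanned nearly the same range. The interval of its log2 fold change, -0.55 to 0.56, bounds the difference to less than 1 log2 unit in either direction (edgeR adjusted p = 0.998), and the sign differed between settings.

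twist1b was at 32.8, 36.7, 25.1 and 20.8 CPM in mutants and 50.0, 57.7, 29.6 and 9.51 CPM in wild type. As for snai1a, all mutants lay inside the wild-type range, and wild type 4 was the lowest library. Its log2 fold change was -0.35 ± 0.47 (95% interval -1.41 to 0.72, edgeR adjusted p = 0.893), -0.05 without wild type 2 and -0.67 without wild type 4. The RefSeq table lists Twist1a as an older name of twist1b and Twist1b as one of twist1a, so these names follow the count tables and may be exchanged elsewhere.

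prrx1a was at 76.6, 37.9, 27.0 and 50.7 CPM in mutants and 119, 72.5, 58.8 and 72.1 CPM in wild type. Mutants 2, 3 and 4 lay below every wild-type library and mutant 1 above 3 of them. The log2 fold change of -0.74 ± 0.35 had a 95% interval of -1.52 to 0.03 and did not pass (edgeR unadjusted p = 0.0590, adjusted p = 0.591, and 0.439 to 0.777 over the alternatives). It ranged from -1.08 without mutant 1 to -0.50 without wild type 1, with an unadjusted p under 0.05 in 2 of the 8 fits that left out 1 library. With all 8 libraries, the unadjusted p was 0.0418 with voom, 0.0430 with library size only, 0.0474 without the low-count filter and 0.00920 with the replicate block. In the remaining settings it was 0.0590 to 0.0610.

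prrx1b was barely counted, with 137, 16, 0 and 53 counts in mutants and 2, 17, 61 and 38 in wild type. Mutant 3, with 0 counts, allows a level of up to 0.130 CPM, the value of 3 counts in that library, and mutant 1 reached 6.52 CPM. Libraries of 1 genotype differed widely, and the log2 fold change was 1.05 ± 1.32 with a 95% interval of -1.92 to 4.01 (edgeR adjusted p = 0.880). It was -0.29 without mutant 1.

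Of the matrix genes, fn1a was at 553, 205, 162 and 229 CPM in mutants and 115, 111, 113 and 96.2 CPM in wild type. The lowest mutant was above the highest wild type, mutant 1 stood far above the rest, and the wild types were tight, with a coefficient of variation of 7.89% against 62.4% in mutants. Mutants averaged 287 ± 179 CPM and wild types 109 ± 8.58 CPM (SD, n = 4). The log2 fold change was 1.40 ± 0.37 (95% interval 0.57 to 2.23), at an edgeR unadjusted p of 0.00385 that did not pass over all genes (adjusted p = 0.287). Without mutant 1 it was 0.85 and the mean fold 1.83, with the other 3 mutants at 199 ± 33.8 CPM. DESeq2 called fn1a with all 8 libraries (adjusted p = 0.0282) and without any 1 of the mutants (0.00898 to 0.0366), but the call was lost without any 1 of the wild types (0.0548, 0.0935, 0.0886 and 0.113 for wild types 1 to 4), a check added after the data were seen. edgeR's adjusted p was 0.283 to 0.517 when any 1 library was left out, with the unadjusted p under 0.05 in 8 of 8 such fits.

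fn1b was at 11752, 8918, 7462 and 8231 CPM in mutants and 5069, 6350, 5332 and 6456 CPM in wild type. All mutants again lay above all wild types, with mutant 1 the highest. The means were 9091 ± 1871 and 5802 ± 704 CPM (SD, n = 4). Mutants differed by a log2 fold change of 0.65 ± 0.24 (95% interval 0.10 to 1.19; edgeR unadjusted p = 0.0243, adjusted p = 0.491, and 0.113 with DESeq2 to 0.875 over the alternatives). It stayed between 0.48 and 0.73 when any 1 library was left out, with an unadjusted p under 0.05 in 6 of 8 such fits. The library kit does not mark strand, and in the RefSeq annotation of GRCz12tu fn1b overlaps atic, a purine synthesis gene, which had 11376 counts over the 8 libraries against 1364391 for fn1b.

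postnb was at 1951, 1173, 1221 and 983 CPM in mutants and 1830, 1888, 1007 and 1681 CPM in wild type. Mutants 2 to 4 sat near wild type 3, and mutant 1 near the other 3 wild types. This gave a log2 fold change of -0.27 ± 0.30 (95% interval -0.93 to 0.40, edgeR adjusted p = 0.862); leaving out any 1 library kept it between -0.53 and -0.14. The interval excludes a log2 increase as large as that estimated for fn1b (0.65), whose own interval (0.10 to 1.19) overlaps it. A difference between postnb and fn1b was not tested.

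The second periostin gene, postna, which is not one of the 10, behaved otherwise and was named by its small p among matrix genes. It was at 320, 78.0, 123 and 153 CPM in mutants and 35.2, 2.79, 25.0 and 2.66 CPM in wild type. Every mutant was above every wild type, and wild types 2 and 4 were near 0. Its log2 fold change was 3.36 ± 0.88 (edgeR unadjusted p = 0.00356, adjusted p = 0.286), and DESeq2 called it. It ranged from 2.83 to 4.05, the latter without wild type 1, when any 1 library was left out. As a log2 ratio, postna to postnb stood at -3.13 ± 0.61 in the 4 mutants and -7.30 ± 2.09 (SD) in the 4 wild types, a description of a pair chosen after its values were seen.

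**Figure D2:**
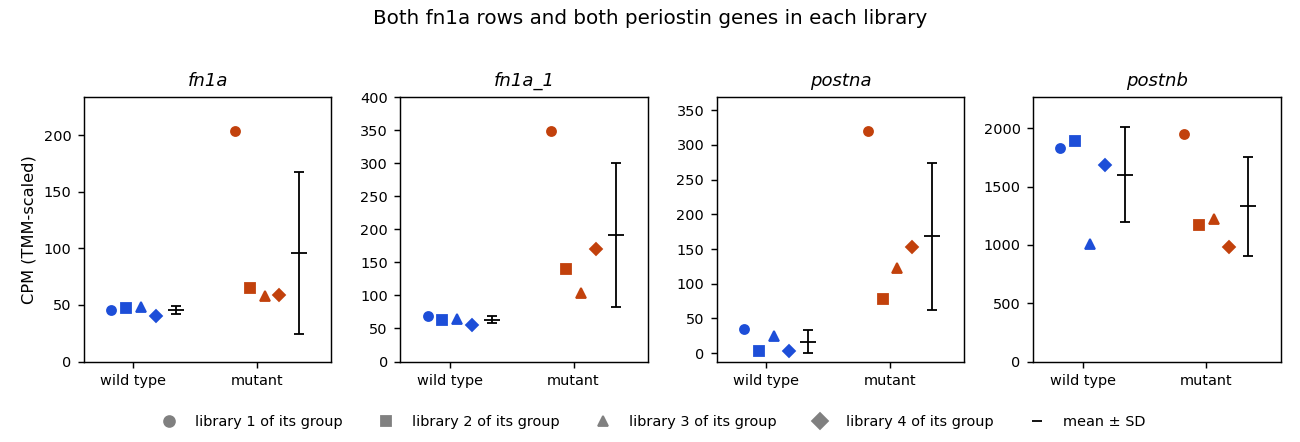
Levels in CPM, on linear axes, of both rows of fn1a and of both periostin genes in every library; colours and markers are those of the plot of the 10 genes, and bars are the mean ± SD of 4 libraries. Mutants lie above wild types on both fn1a rows and for postna (78.0 to 320 against 2.66 to 35.2 CPM), while postnb overlaps.

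**Figure D3:**
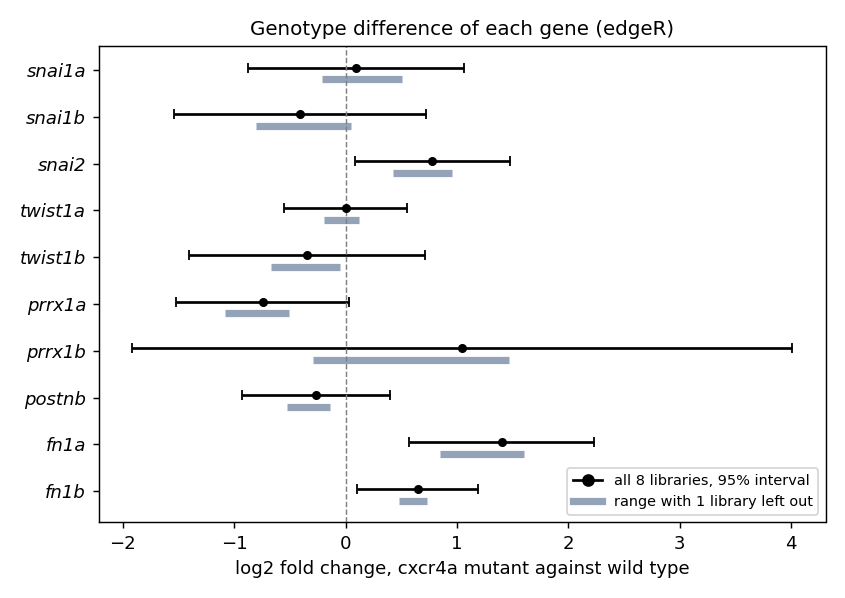
The log2 fold change of each of the 10 genes, mutant against wild type, from edgeR with all 8 libraries (points with 95% intervals) and the range obtained when 1 library was left out (grey-blue bars). The intervals of snai2, fn1a and fn1b lie above 0, none with an adjusted p under 0.05, and the widest, that of prrx1b, runs from -1.92 to 4.01.

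The fn1a total is the sum of the rows fn1a and fn1a_1, and the labels and files do not say how the annotation separates them. The plain row was at 204, 64.9, 57.7 and 58.8 CPM in mutants and 45.6, 47.8, 48.4 and 40.5 CPM in wild type. The row fn1a_1 was at 349, 140, 104 and 169.8 CPM in mutants and 69.6, 63.3, 64.6 and 55.7 CPM in wild type. On each row every mutant was above every wild type. With rows tested as deposited, edgeR put the log2 fold change of the plain row at 1.08 ± 0.42 (adjusted p = 0.387) and that of fn1a_1 at 1.59 ± 0.36 (adjusted p = 0.114).

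The row fn1a_1 held 63.2%, 68.4%, 64.4% and 74.3% of the fn1a counts in mutants and 60.4%, 57.0%, 57.2% and 57.9% in wild type. Each mutant share was above each wild-type share, and the counting interval of a share (95%, Wilson) was at most 4.30 percentage points wide. The intervals of mutant 1 (62.3% to 64.0%) and wild type 1 (58.4% to 62.5%) overlapped. The means were 67.6% ± 5.01 and 58.1% ± 1.59 (SD, n = 4), with an exact permutation p of 0.0286, 2-sided, the smallest that 4 against 4 libraries allow. The share was compared after the counts of both rows had been seen. The exact permutation p was 0.0571 without any 1 of the wild types and 0.0286 without any 1 of the mutants. Over these fits the difference was 7.20 to 10.9 percentage points. Reads that could be placed on either row make single-row counts uncertain.

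Ratios of paralogs within a library do not depend on its total. The log2 ratio of fn1b to fn1a was 4.41, 5.44, 5.52 and 5.17 in mutants and 5.45, 5.83, 5.55 and 6.06 in wild type, after adding 0.5 CPM to each level. Mutants 1, 2 and 4 lay below every wild type, and mutant 3 between wild types 1 and 3. The means differed by -0.59 (exact permutation p = 0.0571, 2-sided, and 0.229 after adjustment over 4 ratios). With 1 library left out, this difference ran from -0.72 without mutant 3 (exact permutation p = 0.0286, adjusted 0.114) to -0.35 without mutant 1 (exact permutation p = 0.171, adjusted 0.571). It was -0.21 (exact permutation p = 0.800) when fn1a_1 was not added to fn1a. For snai1b to snai1a the difference was -0.76 (exact permutation p = 0.286, adjusted 0.381), for prrx1b to prrx1a 1.18 (0.171, adjusted 0.343) and for twist1b to twist1a -0.09 (0.914, adjusted 0.914). Leaving out 1 library gave -1.14 (without mutant 2) to -0.32 (without wild type 4) for the snai1 ratio, and 0.57 (without wild type 1) to 1.57 (without mutant 3) for the prrx1 ratio. With 2 CPM added in place of 0.5, the prrx1 difference was 1.07 (exact permutation p = 0.0286, adjusted 0.114). With 0.1 CPM added it was 1.06 (exact permutation p = 0.429, adjusted 0.571). Outside mutant 1, prrx1b was at 0.0 to 1.85 CPM, so the p of this ratio depends on the value added. With 4 ratios, an adjusted p under 0.05 needs at least 3 ratios that separate the genotypes completely.

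Across libraries the 10 genes did not follow 1 pattern. Mutant 1 was the highest library for 5 of them, snai2, prrx1b, postnb, fn1a and fn1b, and wild type 4 the lowest for 4, snai1a, snai2, twist1b and fn1a. Mutant 1 was also above the mean over all 8 libraries for snai1a, snai1b, twist1b and prrx1a, by 0.17 to 0.38 log2 units. For twist1a it was below, at -0.06. Wild type 2 was the highest for snai1a, snai1b and twist1b. The spread between libraries of a genotype also differed by gene, and for snai2 and fn1a it was 46.6% and 62.4% of the mean in mutants against 6.58% and 7.89% in wild type. For snai1a and twist1b the order was the other way, at 11.8% and 25.0% in mutants against 61.1% and 59.0% in wild type. These differences in spread were not tested.

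**Figure D4:**
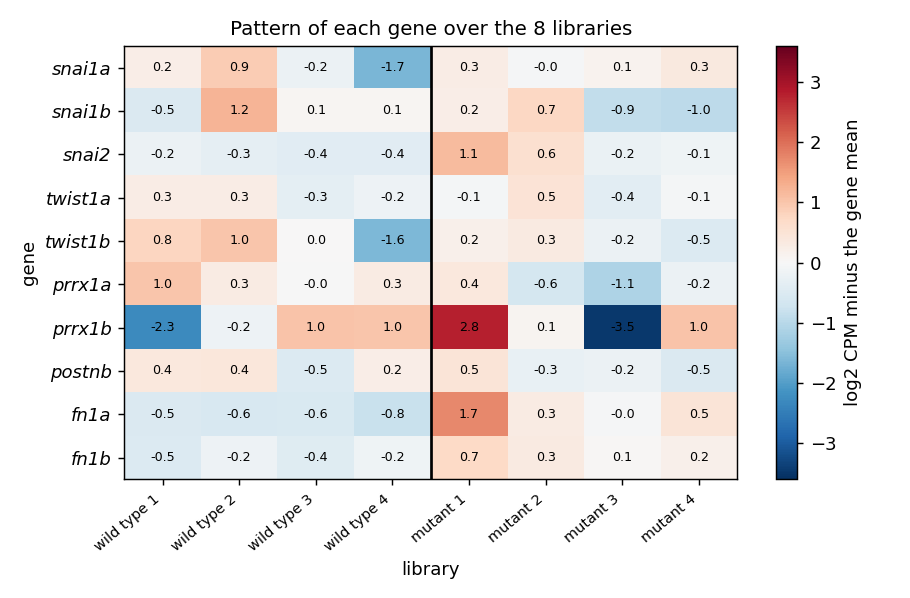
Log2 CPM of each of the 10 genes in every library after subtracting the gene's mean over the 8 libraries, wild types left of the line and mutants right of it; red is above and blue below the gene's mean, and the numbers are log2 units. Mutant 1 is above the mean of every gene except twist1a, most of all for snai2, prrx1b, postnb, fn1a and fn1b. Wild type 4 is blue for snai1a and twist1b.

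Of 45 pairs of the 10 genes, 4 had an exact permutation p under 0.05 for Pearson's r of log2 CPM over the 8 libraries, and 0 passed after adjustment over the 45 (smallest adjusted p 0.0753). All 4 are positive, and the pairs were picked after their values were seen. snai2 and fn1a had r = 0.902 and rho = 0.929 (exact permutation p = 0.00523 and 0.00223, adjusted 0.0785 and 0.10), r = 0.807 without the 2 libraries farthest from the median of snai2, and r = 0.840 after subtracting the genotype means. fn1a and fn1b had r = 0.913 and rho = 0.738 (exact permutation p = 0.00191 and 0.0458, adjusted 0.0753 and 0.625), 0.796 without the 2 farthest libraries and 0.749 within genotypes. snai2 and fn1b had r = 0.854 and rho = 0.690 (exact permutation p = 0.00335 and 0.0694, adjusted 0.0753 and 0.625), but 0.452 without the 2 farthest libraries. After subtracting the genotype means, with all 8 libraries, r of snai2 and fn1b was 0.761. The fourth pair, snai1a and twist1b, had r = 0.850 and rho = 0.476 (exact permutation p = 0.0172 and 0.243, adjusted 0.194 and 0.860) and -0.10 without the 2 farthest libraries, so it rests on those. With those 2 libraries still included, its r after subtracting the genotype means was 0.896.

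The pattern of each gene over the 8 libraries was set against 8541 genes of mean log2 CPM of 3 or more, by the root mean square difference of log2 CPM after centring each gene. For fn1b the closest were slc39a13, a zinc transporter gene, at 0.10 log2 units, ahcyl2b at 0.11 and fbxo11b at 0.13, where the spread of fn1b itself was 0.38. The closest to fn1a were il1rl2 at 0.23, cst14b.1 at 0.27 and dhdh.2 at 0.28 against a spread of 0.78. For snai2 they were cishb, fbxl5 and pam (0.15 to 0.18 against 0.52), and for postnb dgat1b, which makes triglycerides, nme2b.1 and the tetraspanin gene cd151 (0.13 to 0.16 against 0.39). For twist1a they were mgaa, prrg4 and phf12a (0.09 to 0.12 against 0.29), for twist1b usp6nl, clk4a and lonrf4 (0.22 to 0.26 against 0.76) and for prrx1a nek4, rhbdd2 and adora2ab (0.25 to 0.31 against 0.62). snai1a was closest to prrt4b, abcc5 and qki2 (0.23 to 0.26 against 0.69) and snai1b, less closely, to tmem200b, gtf3aa and pes (0.30 to 0.34 against 0.71). prrx1b was too low for this comparison.

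Genes around these 10 were followed as 7 lists, which were chosen with earlier results of these data known. Their shares beside the background are therefore descriptions. edgeR called 0 genes of any list over all genes, and the counts below are at an edgeR unadjusted p under 0.05. At that p, 5.09% of all genes tested were higher and 3.55% lower in mutants, with a median log2 fold change of 0.01. For the DESeq2 calls in the lists, at an adjusted p under 0.05, the background was 1.79% of all genes in either direction and 1.02% higher. Of 54 tested activation and provisional matrix genes, 13 were higher and 0 lower (24.1%; median 0.47), and DESeq2 called 6 of 60 higher. These were postna, fbn1 and aspn, the cross-linking enzyme genes loxl2a and loxl2b, and fbln1, which encodes a fibulin. aspn, a small proteoglycan gene, was at 29.3, 6.21, 8.02 and 11.2 CPM in mutants and at most 1.05 CPM in wild type (log2 fold change 4.49 ± 0.74, edgeR adjusted p = 0.102). fbn1, encoding fibrillin, was at 113 to 137 CPM in mutants and 43.2 to 63.4 CPM in wild type (log2 fold change 1.21 ± 0.20, edgeR adjusted p = 0.102). loxl2a was at 794 to 2194 and 315 to 605 CPM (log2 fold change 1.54 ± 0.38, edgeR adjusted p = 0.250). With rows as deposited edgeR called 2 of 53 genes of this list, aspn and fbn1 (adjusted p = 0.0442 for both), where it called 0.35% of all rows (63 of 18002). The list's median was 0.30 without mutant 1 and 0.31 without mutant 2, and the log2 fold change of aspn 3.80 without mutant 1.

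Receptors of fibronectin and periostin, with the proteins that link them to actin, had 5 higher and 1 lower of 35 tested (17.1%; median 0.40; DESeq2 called 0). sdc2, a heparan sulfate coreceptor gene, was at 179 to 264 CPM in mutants and 116 to 167 CPM in wild type (log2 fold change 0.60 ± 0.21, edgeR adjusted p = 0.472). tgm2b, a transglutaminase gene, was at 1834 to 2511 and 2550 to 4265 CPM (log2 fold change -0.62 ± 0.25, edgeR adjusted p = 0.531), every mutant below every wild type. vclb, a vinculin gene, and tgm2l had overlapping groups (log2 fold changes 1.39 ± 0.58 and 3.52 ± 1.44, edgeR adjusted p = 0.543 and 0.533). Without mutant 2 the log2 fold change of vclb was 0.70 and the median of this list 0.01; tgm2l was at 2.59 without mutant 1 and 4.50 without wild type 2.

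The remaining transition factors gave 1 higher and 1 lower of 22 (9.09%; median 0.19; DESeq2 called 0). tcf4, an E protein gene, was at 26.0 to 55.8 CPM in mutants and 9.79 to 38.8 CPM in wild type (log2 fold change 0.97 ± 0.43, edgeR adjusted p = 0.575). id4, whose product binds E proteins and keeps them off DNA, was at 0.286 to 2.78 and 2.33 to 11.8 CPM (log2 fold change -1.88 ± 0.76, edgeR adjusted p = 0.529). The log2 fold changes of msx1b (2.30 ± 1.13), which was below 2 CPM, and tcf15 (0.89 ± 0.44) had an edgeR adjusted p of 0.611 each. The list's median turned to -0.10 without mutant 2 and to -0.02 with voom, and was 0.00 with the replicate block and 0.38 without wild type 1. Without 1 library, id4 moved to -1.23 (wild type 2) and msx1b to 3.62 (wild type 3) on the log2 scale.

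Epithelial junction genes, which Snail proteins can repress, had 4 higher and 0 lower of 30 (13.3%; median 0.22). jupb, a plakoglobin gene, was at 28.1 to 41.6 CPM in mutants and 8.69 to 16.6 CPM in wild type (log2 fold change 1.49 ± 0.29, edgeR adjusted p = 0.138), and DESeq2 called it higher. ctnna1, encoding alpha-catenin, was at 211 to 336 and 106 to 170.1 CPM (log2 fold change 0.90 ± 0.26, edgeR adjusted p = 0.322). The claudin genes cldn5a and cldn11a had log2 fold changes of 1.99 ± 0.70 and 2.23 ± 0.83 (edgeR adjusted p = 0.472 and 0.486), with their highest level in mutant 1. Without mutant 1 these were 0.91 and 1.15. The list's median was 0.35 without wild type 2 and 0.13 without wild type 4. DESeq2 called 1 other gene of this list lower, crb3a, which edgeR did not test.

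Mesenchymal adhesion and contractile genes had 2 higher and 1 lower of 33 (9.09%; median 0.15). flna, a filamin gene, was at 1.00, 0.174, 4.21 and 5.03 CPM in mutants and 20.9, 26.1, 89.7 and 82.0 CPM in wild type (log2 fold change -4.37 ± 0.92, edgeR adjusted p = 0.156), and DESeq2 called it lower. cdh11, a mesenchymal cadherin gene, was at 25.0 to 88.2 and 6.01 to 35.6 CPM (log2 fold change 1.31 ± 0.54, edgeR adjusted p = 0.537). The alpha-actinin genes actn4 and actn1 had log2 fold changes of 0.56 ± 0.19 and -0.68 ± 0.39 (edgeR adjusted p = 0.460 and 0.683). The list's median was -0.13 without mutant 2 and 0.47 without wild type 4, so it has no fixed direction.

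The TGF-beta list, a pathway known to induce Snail and fibronectin genes, had 4 higher and 1 lower of 34 (14.7%, median 0.31). DESeq2 called 0 of the 33 genes it tested. skila, a feedback inhibitor gene, was at 125 to 191 CPM in mutants and 60.6 to 119 CPM in wild type (log2 fold change 0.88 ± 0.26, edgeR adjusted p = 0.333). inhbaa, an activin subunit gene, was at 197 CPM in mutant 1, 19.9 to 31.4 CPM in the other 3 mutants and 5.79 to 19.8 CPM in wild type (log2 fold change 2.51 ± 0.78, and 1.04 without mutant 1; edgeR adjusted p = 0.384). ltbp3 and ltbp1, whose products bind latent TGF-beta, had log2 fold changes of 0.62 ± 0.26 and -1.04 ± 0.37 (edgeR adjusted p = 0.555 and 0.472). DESeq2 gave inhbaa no adjusted p. Without mutant 2 the list's median was 0.07.

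Mesenchymal growth factor receptors and ligands had 1 higher and 1 lower of 22 (9.09%; median 0.33). egfra, an EGF receptor gene, had a log2 fold change of 1.03 ± 0.32 and pdgfd, a PDGF ligand gene, one of -1.30 ± 0.33 (edgeR adjusted p = 0.384 and 0.254), and DESeq2 called pdgfd lower. For fgf24 and fgfr2 the log2 fold changes were -1.51 ± 0.70 and -0.45 ± 0.32 (edgeR adjusted p = 0.587 and 0.768). The list's median was 0.20 without wild type 4 and 0.54 without wild type 1.

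**Figure D5:**
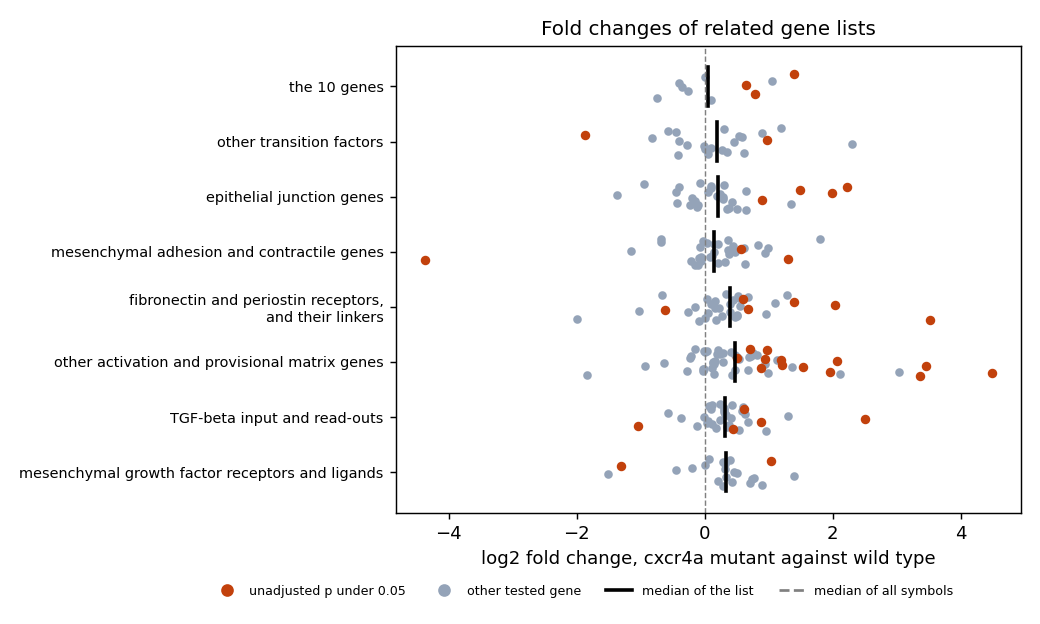
Log2 fold changes, mutant against wild type, of the 10 genes and of 7 lists of related genes; each point is a tested gene, orange at an unadjusted edgeR p under 0.05, the black bar is the list's median and the dashed line the median of all genes tested (0.01). The 10 genes have a median of 0.05, and the activation and provisional matrix genes one of 0.47. Genes and lists were chosen with earlier results of these data known.

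Markers of other cells in the sort varied between libraries, and those of cardiomyocytes and mural cells also leaned higher in mutants. Over all genes tested, 50.7% had a positive log2 fold change and 8.64% an edgeR unadjusted p under 0.05. All 8 tested cardiomyocyte markers had positive log2 fold changes, 4 at an edgeR unadjusted p under 0.05. The cardiomyocyte sum was 334 to 1879 CPM in mutants, highest in mutant 3, and 276 to 592 CPM in wild type. Mural markers had 9 of 9 positive, rgs5a by only 0.01 (edgeR adjusted p = 0.998), and 4 at an edgeR unadjusted p under 0.05. Mural sums were 1196 to 4574 CPM in mutants, highest in mutant 2, and 652 to 2239 CPM in wild type (exact permutation p = 0.514). Leukocyte sums were 684 to 4440 and 1345 to 3374 CPM, and endothelial sums 183 to 230.1 and 114 to 333 CPM, with plvapb at 0 in every library. Erythrocyte and thrombocyte sums were 2681 to 7028 and 652 to 11843 CPM, and Schwann and neural sums 6.44 to 37.8 and 11.2 to 25.8 CPM, with mbpa at 0. Log2 fold changes were positive for 3 of 8 tested leukocyte markers, 1 of 8 endothelial and 0 of 6 erythrocyte and thrombocyte markers. Schwann and neural markers had 1 of 2 positive, and none of these lists had a marker at an edgeR unadjusted p under 0.05. Epicardial markers had 2 of 5 positive, with 1 at an edgeR unadjusted p under 0.05. Exact permutation p for the 7 sums was 0.200 or more. A sum follows its most abundant markers and can hide others. In the mural sum, myh11a was at 47.7 to 2016 CPM in mutants and 36.6 to 883 CPM in wild type. The mural marker abcc9 was at 79.0 to 158 CPM in mutants and 24.1 to 62.0 CPM in wild type (edgeR adjusted p = 0.277). The other mural markers overlapped between genotypes. Mutant 1, the highest library for fn1a, fn1b and snai2, had a cardiomyocyte sum of 334 CPM, the lowest of the mutants. That was above wild types 3 and 4 (276 and 320 CPM) and below wild types 1 and 2 (592 and 431 CPM). Its mural sum was 2126 CPM, above mutants 3 and 4 (1196 and 1346 CPM) and below mutant 2. That mural sum was above wild types 1 and 2 (1151 and 652 CPM) and below wild types 3 and 4 (2230 and 2239 CPM). The part of these cells in the results was not tested.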

How the data were processed

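Sorted tcf21:nEGFP-positive cells were sequenced as 8 SMART-Seq v4 and Nextera XT libraries. Each deposited table lists raw counts by gene symbol. Per the submitters' processing notes, the tools were STAR 2.7.11a, cutadapt 5.2 and HTSeq, and the build was GRCz11; no source used here gives their parameters or the annotation release. Totals per library were 18891079 to 28471786 counts. Counts, copies summed by symbol, went into edgeR 4.0.16 (R 4.3.3; TMM scaling, filterByExpr, quasi-likelihood F-test, genotype as the only term), and p-values were adjusted by Benjamini-Hochberg over 16631 genes. Standard errors and 95% intervals of log2 fold changes came from the F statistic. Paralog ratios were tested by exact permutation over 70 assignments.

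The 10 genes, the 7 lists and the markers were chosen with earlier results of these data known. Genes outside the 10 were named by rule: the 4 of each list with the smallest p, and the 3 closest to each gene in pattern; others (loxl2b, fbln1, crb3a) were named because DESeq2 called them. All 10 genes were found in the RefSeq table of GRCz12tu, a build other than that of the counts, and coordinates are left out; 6 overlap another gene there. Alternatives were DESeq2 1.42.0, limma 3.58.1 voom, other scalings and filters, rows as deposited, a replicate block and leaving out each library. The Wilson intervals of shares and the floors (3 counts) cover counting error only, since amplified reads are not independent molecules.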

Additional observations from a re-analysis of the deposited data

Results flagged for a closer look

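Dixon's criterion at the 95% level was applied to 98 groups of 4 libraries, and 4 held a library far from its own genotype. Chance alone gives about 1 in 20 such groups for independent, normally distributed values, which CPM are not.

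fn1a was at 553 CPM in mutant 1, with the next mutant at 229 CPM and the lowest at 162 CPM, a gap of 0.830 of the range. The log2 ratio of twist1b to twist1a was -3.07 in wild type 4 and between -1.31 and -0.97 in the other 3 wild types. For cldn5a, a claudin gene, mutant 1 was at 57.7 CPM and the next mutant at 14.7 CPM. For inhbaa, an activin subunit gene, these levels were 197 and 31.4 CPM. So 3 of the 4 were in mutant 1. The 4 flags among 98 groups are no more than a share of 1 in 20, and whether mutant 1 differs from the other mutants was not tested.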

How the results depend on the processing

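No alternative except DESeq2 called any of the 10 genes; DESeq2 called 1 (fn1a, log2 fold change 1.40). Genes called over the whole table were 63 with rows as deposited, 468 with DESeq2, 0 with voom, 0 with the replicate block and 0 to 9 without 1 library (0 without mutant 1, 7 without mutant 2, 9 without mutant 4, 1 to 3 without each other library). Over the 10 genes and all alternatives, direction and call were kept in 147 comparisons, a call was gained in 1, and direction turned in 12. It turned for twist1a with rows as deposited (-0.011), DESeq2 (-0.00044), voom (-0.0090), the filter at 1 CPM (-0.0081), the replicate block (-0.0072) and without single libraries (-0.19 to 0.12), and for prrx1b with voom (-0.28). Without 1 library, prrx1b ranged from -0.29 to 1.46, snai1a from -0.21 to 0.51 and snai1b from -0.80 to 0.045. The twist1b to twist1a difference ranged from -0.57 to 0.13. The causes were not tested. No label names a batch or a pairing beyond the replicate number. Same-numbered libraries correlated at -0.08 to 0.08 in their deviations from the group means, and 4 of 8 libraries correlated best with their own number. With so few libraries, these values cannot tell whether same-numbered libraries share a batch. With the replicate block fn1a was at 1.22 and fn1b at 0.63, and the paralog ratios could not go below an exact permutation p of 0.125. prrx1b had 0 to 137 counts per library; at 0 counts a level of up to 0.130 CPM is allowed.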
